A study of Homo sapiens with 24 samples.

Results

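The histone genes of 3 triple-negative breast cancer cell lines were followed across a short exposure to a BET degrader, a BET inhibitor and their controls. The genes were every row of the deposited expression table whose symbol starts with HIST1, HIST2, HIST3, HIST4, H1F, H2AF or H3F. They came to 75 of the 14114 genes in the table. Of these, 60 were protein-coding genes of the histone clusters (6 for H1, 14 for H2A, 18 for H2B, 10 for H3 and 12 for H4), 10 were variant genes outside the clusters (H1F0 and H1FX for H1, H2AFJ, H2AFV, H2AFX, H2AFY, H2AFY2 and H2AFZ for H2A, H3F3A and H3F3B for H3), and 5 were pseudogenes of the clusters. The rule reads symbols, not measured values. GENCODE 29 names 87 protein-coding genes by the same prefixes, and 70 of them were in the table. HIST2H3A, HIST2H3C, HIST2H4A and HIST2H2AA3, near-identical copies of genes that were measured, were not among the rows used here, so values of genes with such copies are uncertain.

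MDA-MB-468, MDA-MB-231 and MDA-MB-157 are established lines labelled as basal breast cancer without oestrogen or progesterone receptor and without HER2 overexpression. No allele or transgene distinguished the groups within a line. Where 3 values follow each other without names they stand for MDA-MB-157 cells, then MDA-MB-231 cells, then MDA-MB-468 cells. Each line was treated for 3 h with the solvent DMSO at 0.05% v/v, with thalidomide at 1000 nM, with BETi-211, a BET inhibitor, at 1000 nM, or with the BET degrader BETd-246 at 100 nM, which gave 12 groups of 2 libraries. The submitters describe the 2 libraries of a group as biological replicates and used both DMSO and thalidomide as controls, so each compound was set against 4 control libraries of its line. BET proteins bind acetylated histone tails and help to recruit the machinery of transcription elongation. An inhibitor displaces them from chromatin, whereas a degrader joins a BET ligand to a ligand of the ubiquitin ligase subunit cereblon and leads to their removal by the proteasome. Thalidomide binds cereblon without binding BET proteins.

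Histones are the proteins around which DNA is wound: pairs of H2A, H2B, H3 and H4 form the core of a nucleosome and H1 binds the DNA that enters and leaves it. Most histone protein comes from clustered genes without introns, which are transcribed mainly while DNA is replicated. Their mRNA carries no poly(A) tail and ends just after a conserved hairpin, which the stem-loop binding protein SLBP recognises. Variant genes lie singly in the genome, mostly have introns and poly(A) tails, and are expressed throughout the cell cycle. The libraries were made from RNA depleted of ribosomal RNA and primed with random primers, a design that does not select for a poly(A) tail. The kit does not mark strand, so reads from a gene and from an overlapping gene on the opposite strand cannot be told apart.

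The hairpin is printed for 3 clustered genes on chromosome 6 that come up in the results, of the types H2A, H2B and H4. Each is read 5′ to 3′ from the GENCODE 29 transcript (build GRCh38), as DNA letters, with the 2 stem arms and the loop in capitals.
HIST1H2AE: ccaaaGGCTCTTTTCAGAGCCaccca
HIST1H2BD: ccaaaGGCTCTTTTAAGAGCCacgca
HIST1H4H: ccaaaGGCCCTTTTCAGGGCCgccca
They lie at chr6:26217412-26217437 on the plus strand, chr6:26158582-26158607 on the plus strand and chr6:26285126-26285151 on the minus strand, in that order, in the 3′ untranslated part of the last exon. The last 150 bases of each transcript were searched on the sense strand for such a hairpin, as in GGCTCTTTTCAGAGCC and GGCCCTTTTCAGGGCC. The pattern was a perfect stem of 6 pairs starting with GG around a loop of 4 bases starting with TT. Matches are thus alike in these bases by construction, and how far the hairpin differs between histone types cannot be read from them. The pattern was found in 11 of the 60 clustered genes, in 0 of the 10 variant genes and in 12 of 13876 other genes of the table (0.0865%). Among the clustered H1 and H3 genes there were 0 matches. The match of 1 of the 11, HIST1H2BN, lies at chr6:27865773-27865798, just past the end of HIST1H2AL on the same strand, and is reached by a long transcript model, so it may be the hairpin of that gene. Many transcript models of clustered genes stop at the coding sequence, and longer models may run more than 150 bases past a hairpin. A missing match, also in a variant gene, says only that the pattern is not in the last 150 bases of its models.

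Promoter windows of 3 genes show the sites that the gene groups have in common. HIST1H2BG and HIST2H2BE were chosen because they carry both the octamer and the TATA box, and H2AFX because the results below turn on it. Each window runs from 80 bases before the start to 10 after it on the gene's own strand (RefSeq, build GRCh38.p14), with the octamer ATTTGCAT and the TATA box TATAAA in capitals.
HIST1H2BG: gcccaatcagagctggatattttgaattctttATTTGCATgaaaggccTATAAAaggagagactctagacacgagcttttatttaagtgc
HIST2H2BE: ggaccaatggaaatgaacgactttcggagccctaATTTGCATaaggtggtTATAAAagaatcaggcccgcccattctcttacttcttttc
H2AFX: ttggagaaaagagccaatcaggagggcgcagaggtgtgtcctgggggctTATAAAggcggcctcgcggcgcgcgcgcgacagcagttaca
They lie at chr6:26216679-26216768, chr1:149886673-149886762 and chr11:119095456-119095545, all on the minus strand. RefSeq promoters of 300 bases were found for 61 of the 75 genes. Searched on both strands, the octamer was in 14 of the 18 clustered H2B promoters and 10 of the 12 clustered H2A promoters that matched, in 0 of the clustered H1, H3 and H4 promoters, in 1 of 9 variant promoters (H3F3B), and in 1.80% of all 27305 promoters of the table. TATAAA was in 34 of 52 clustered and 4 of 9 variant promoters against 11.95% of all promoters, and CCAAT in 45 of 52 and 7 of 9 against 35.7%. Divergently paired H2A and H2B genes share part of these windows, so their sites are not independent, and a match is a description of letters, not of binding.

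Each library rested on an estimated 43200000 to 64600000 fragments, and the deposited values of the histone genes correlated between the 2 libraries of a group at 0.9978 to 0.9997 (Pearson, across genes, which are not independent replicates). The share of the summed values from mitochondrial genes was 8.02% to 10.4% in control libraries of MDA-MB-157, 9.79% to 13.99% in MDA-MB-231 and 7.19% to 8.33% in MDA-MB-468. With BETd-246 it was 9.66% to 11.98%, 14.9% to 15.1% and 9.55% to 9.74%. The median gene was also lower, at 8.41 to 8.56 with BETd-246 against 9.80 to 10.0 in controls of MDA-MB-157, with like shifts in the other lines and smaller ones with BETi-211. These quantities moved together with the treatments, and their part in the results on histone genes was not tested. Of the markers, the 5 epithelial genes summed to 3788 to 4613 in MDA-MB-468 and to 422 to 537 in the other lines. CDH1 was below 1 in those other lines. KRT5, KRT14 and KRT17, of the basal and mesenchymal genes, were below 1 in MDA-MB-157 and MDA-MB-231. VIM was at 1976 to 2299 and 816.1 to 1030 there. In MDA-MB-468 the 3 keratins were at 698.5 to 876.1, 22.84 to 29.24 and 920.1 to 1310, with VIM at 11.55 to 14.14. EGFR was at 10.3 to 10.68, 40.75 to 58.45 and 582.4 to 764.6 in the 3 lines. Of the labelled-negative receptors ERBB2 was at 7.17 to 19.5. Of 8 blood and endothelial genes 2 were in the table. In MDA-MB-157 CD14 was at 50.9 to 68.1 and CSF1R at 2.96 to 3.87, and both were below 1 in the other lines.

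In control cells the clustered genes were among those with the highest values in the table, and each line had its own set of silent ones. Levels are in FPKM (fragments per kilobase of transcript, scaled to sequencing depth), which is per length. The annotation and transcript lengths used for the values are not known. In GENCODE the exons cover 411 bases for HIST1H3B and 5477 for HIST1H2BN. Ranks and medians across genes therefore describe the listed values. They may partly reflect model length and how reads of near-identical copies were assigned, which was not tested. The median clustered gene stood at 110.6 FPKM in MDA-MB-157 cells, 84.6 in MDA-MB-231 cells and 147 in MDA-MB-468, the median variant gene at 56.4, 101 and 107, and the median gene of the whole table at 9.90, 8.73 and 9.79. Together the 75 genes made up 2.15%, 2.56% and 2.82% of the summed FPKM. Of the 60 clustered genes, 35, 26 and 39 had a control mean of at least 100 FPKM in the 3 lines, and 2, 21 and 4 had one below 1 FPKM. HIST1H3B, a replication-dependent H3 gene, had the highest control mean of all clustered genes in each line, at 533 ± 20.8 FPKM (SD, n = 4) in MDA-MB-157 cells, 1169 ± 129.8 in MDA-MB-231 cells and 738 ± 49.8 in MDA-MB-468. Only H3F3B, one of the 2 genes for the replication-independent H3 variant, was higher in MDA-MB-157, at 606 ± 25.3 FPKM, and the 4 control libraries of these 2 genes did not overlap.

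The order below the top differed by line. In MDA-MB-231 the linker histone genes HIST1H1C at 1079 ± 96.9 FPKM and HIST1H1E at 932 ± 94.1 followed HIST1H3B, and the spreads of these 3 overlapped. In MDA-MB-468 the next were HIST1H3F at 601 ± 42.5 FPKM, H2AFZ at 592 ± 28.1 and HIST1H1B at 566 ± 25.1, again within each other's spread. In MDA-MB-157 HIST1H1B came next at 433 ± 15.3 FPKM, above H2AFZ at 408 ± 10.0 and HIST1H3F at 397 ± 15.5, which overlapped each other. HIST1H1B and HIST1H3F, among the highest in 2 lines, were listed at 0 in all 4 control libraries of MDA-MB-231. Between the controls of 2 lines, 72 of the 75 histone genes differed between MDA-MB-157 and MDA-MB-231 (limma, adjusted p below 0.05, where 87.4% of all genes did), 70 between MDA-MB-468 and MDA-MB-231 (86.2%) and 63 between MDA-MB-157 and MDA-MB-468 (88%).

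**Figure D1:**
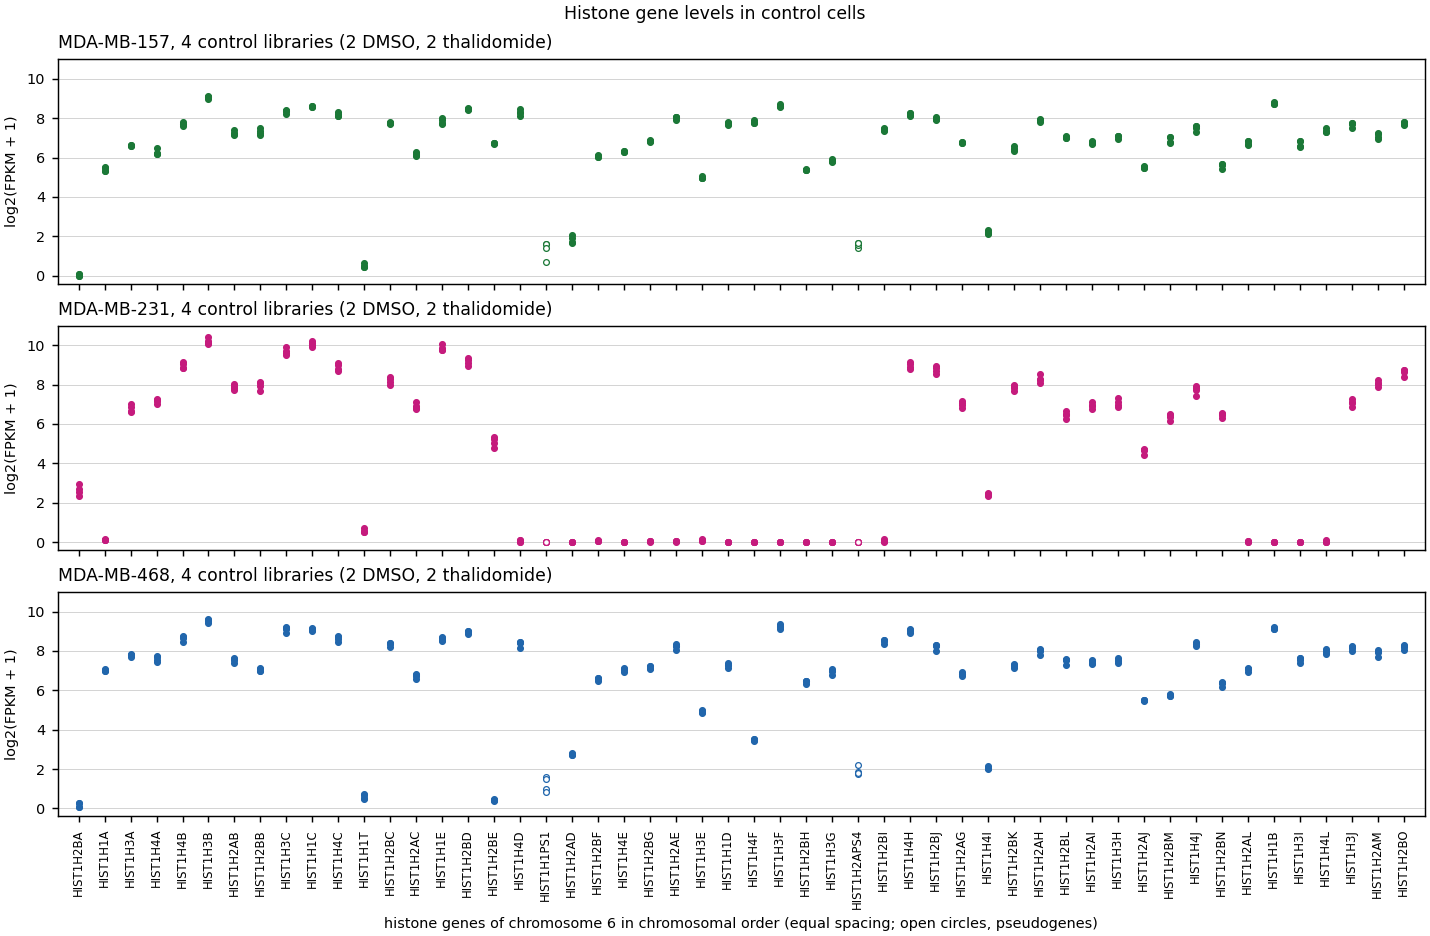
Log2(FPKM + 1) in each of the 4 control libraries (points) for histone genes in their order along chromosome 6, with a panel for each cell line and open circles for pseudogenes. The run of 15 neighbouring genes from HIST1H4D to HIST1H2BI and the run of 4 from HIST1H2AL to HIST1H4L lie at or near 0 in MDA-MB-231 and well above 0 in the other lines.

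MDA-MB-231 had almost no RNA from whole stretches of the HIST1 cluster. In that line 24 of the 75 histone genes were below 1 FPKM in each control library: 21 clustered genes, the variant H2AFY2 and 2 pseudogenes. Of these, 15 were neighbours without a break from HIST1H4D to HIST1H2BI at chr6:26188765-26273356, a span of 84592 bases. Their highest control value was 0.101 FPKM, and 36 of their 60 control values were 0. The same 15 genes had a median control mean of 78.1 FPKM (1.57 to 397) in MDA-MB-157 and of 124 (1.38 to 601) in MDA-MB-468. The genes on either side were expressed in MDA-MB-231: HIST1H2BE stood at 33.4 ± 5.65 FPKM and HIST1H4H at 502 ± 60.6. RP1-34B20.21, a gene inside the stretch whose symbol lacks a histone prefix, was also at 0.0 FPKM there, against 37.7 in MDA-MB-157 and 55.7 in MDA-MB-468. RP1-34B20.4, another such gene inside the stretch, was low in every line, with control means of 0.875, 0.0784 and 0.329 FPKM. A gene of the table, AL031777.3, overlaps exons of HIST1H2AD by 385 bases and of HIST1H1PS1 by 533. Whether it is RP1-34B20.21 under another name was not checked, so the value of RP1-34B20.21 may not be independent of the histone genes. Whether the DNA of the stretch is present in MDA-MB-231 was not analysed here.

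A second stretch of 4 neighbours, HIST1H2AL, HIST1H1B, HIST1H3I and HIST1H4L at chr6:27865355-27873510 (8156 bases), was likewise near 0 in MDA-MB-231. Its highest control value was 0.0655 FPKM, and 13 of 16 values were 0, whereas the median control mean was 135 FPKM in MDA-MB-157 and 219 in MDA-MB-468. HIST1H1A, a linker histone gene at the start of the cluster, stood at 0.0573 to 0.122 FPKM in MDA-MB-231, 38.2 to 44.6 in MDA-MB-157 and 125 to 135 in MDA-MB-468. The pair HIST3H2A and HIST3H2BB, singled out after their values were seen, lies at chr1:228456979-228460470 and did not exceed 0.419 FPKM in the MDA-MB-231 controls. Of the 6 clustered H1 genes only HIST1H1C and HIST1H1E were above 1 FPKM in its controls.

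Further genes were low in 1 line or more. H1F0, the linker histone gene of cells that have left the cycle, stood at 0.501 to 0.729 FPKM in the MDA-MB-157 controls, 25.4 to 29.04 in MDA-MB-231 and 45.9 to 50.8 in MDA-MB-468. HIST1H2BE ran from 0.322 to 0.396 FPKM in MDA-MB-468, against 104 to 107 in MDA-MB-157; its exons overlap an antisense gene by 730 bases. H2AFY2, which encodes one of the macroH2A proteins of repressed chromatin, stood at 0.0831 to 0.146 FPKM in MDA-MB-231, 11.1 to 11.99 in MDA-MB-157 and 20.6 to 22.6 in MDA-MB-468. HIST1H1T, the testis H1 gene, was at 0.356 to 0.550, 0.416 to 0.659 and 0.419 to 0.637 FPKM in the 3 lines, low in all of them. HIST1H2BA, the testis H2B gene, named after its values were seen, had a mean of 5.19 FPKM in MDA-MB-231 and was below 1 FPKM in the other lines.

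The silent stretches of MDA-MB-231 gave traces of RNA with BETd-246. Of the 15 genes from HIST1H4D to HIST1H2BI, 14 had both BETd-246 libraries above all 4 controls, at 0 to 0.966 FPKM over all 15, and of the 4 genes of the second stretch 3 did, at 0.0443 to 0.358 FPKM. Among all genes 19.9% had both BETd-246 libraries above all 4 controls in this line. With BETi-211 the counts were 3 of 15 and 2 of 4 (22.4% of all genes). HIST1H1A, outside both stretches, reached more: 0.122 and 0.0869 FPKM with DMSO, 0.0604 and 0.0573 with thalidomide, 0.198 and 0.103 with BETi-211 and 1.302 and 1.07 with BETd-246. Both degrader libraries lay above the other 6, yet at 1.075 to 1.302 FPKM they were far under the 41.1 FPKM and 129.5 FPKM of the control means in MDA-MB-157 cells and MDA-MB-468. HIST1H2AD and HIST3H2A were at or near 0 under each treatment of this line. Where controls were listed at 0 no fold change is given, and the called changes on the log2(FPKM + 1) scale are differences between very low levels.

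**Figure D2:**
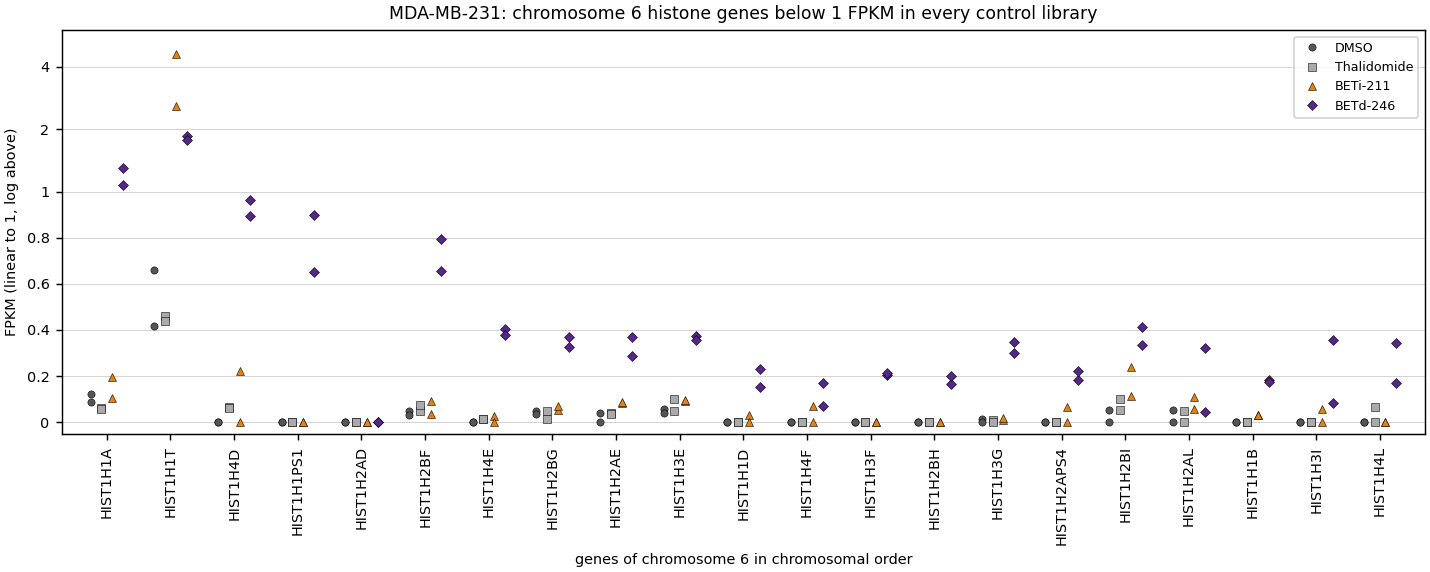
FPKM in each of the 8 MDA-MB-231 libraries (points, by treatment; the axis is linear to 1 FPKM and logarithmic above) for the chromosome 6 histone genes below 1 FPKM in all controls of that line. The BETd-246 points lie above the controls for 14 of the 15 genes of the first stretch and stay below 1 FPKM there.

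With BETi-211 more histone genes rose than fell in every line. Of the 75 genes, 25 rose and 11 fell in MDA-MB-157 (14.9% and 30.9% of all genes did), 38 rose and 1 fell in MDA-MB-231 (18.7% and 31.4%), and 46 rose and 5 fell in MDA-MB-468 (21.3% and 32.5%). Among all genes of the table falls outnumbered rises. The clustered genes rose in 17, 27 and 36 of 60 cases and fell in 10, 1 and 4, and the variant genes rose in 5, 8 and 8 of 10 and fell in 1, 0 and 1. Read without a model, both BETi-211 libraries lay above all 4 controls for 32, 44 and 52 of the 75 genes (22.1%, 22.4% and 27.2% of all genes) and below all of them for 16, 2 and 6 (37.3%, 34.4% and 37%). In MDA-MB-157 the balance depended on scaling: upper-quartile scaling gave 35 higher and 6 lower, scaling to the column total 23 and 17, and median-of-ratios scaling 31 and 5. In MDA-MB-468 quantile normalization gave 37 and 11 and column-total scaling 38 and 11. Without BETi-211 replicate 1 of MDA-MB-157, 5 genes fell there, and without thalidomide replicate 1 of MDA-MB-231, 3 fell.

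With BETd-246 the picture differed by line. In MDA-MB-157, 13 histone genes rose and 30 fell (19% and 32.4% of all genes); in MDA-MB-231, 35 rose and 10 fell (14.8% and 33.3%); in MDA-MB-468, 22 rose and 21 fell (20.1% and 33.7%). Clustered genes, 60 of the 75, were called lower in 28, 9 and 19 cases and higher in 8, 26 and 14. As shares the lower calls were 46.7%, 15% and 31.7%. Only in MDA-MB-157 was this share above that of all genes. Among the 10 variant genes a lower call was given to 1 per line, and higher calls to 5, 4 and 6. Without BETd-246 replicate 2 of MDA-MB-157, 7 rose there, and without replicate 1, 19 fell. In MDA-MB-231, 19 fell without thalidomide replicate 1 and 6 without BETd-246 replicate 2. In that line 20 of the 35 rises were of genes with a control mean below 1 FPKM, and 15 were among the 51 genes with at least 1 FPKM. Both BETd-246 libraries lay above all 4 controls for 20, 33 and 30 of the 75 genes (25.4%, 19.9% and 25% of all genes) and below for 35, 11 and 23 (37.4%, 38% and 38.1%). The BETd-246 and BETi-211 comparisons of a line share their 4 control libraries, and the doses differ (100 nM and 1000 nM), so the values of the compounds are given side by side and were not tested against each other.

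The split of the BETd-246 calls moved with the scaling. Median-of-ratios scaling shifted the median of all genes by 0.12, 0.13 and 0.12 on the log2 scale in the 3 lines. It gave 24 higher and 18 lower histone genes in MDA-MB-157, 49 and 4 in MDA-MB-231, and 39 and 13 in MDA-MB-468. Column-total scaling gave 7 and 39, 29 and 18, and 16 and 31. Upper-quartile scaling gave 20 and 21 in MDA-MB-157 and 31 and 19 in MDA-MB-468, and quantile normalization 33 and 21 in MDA-MB-231 and 21 and 30 in MDA-MB-468. Under quantile normalization 2941 and 3267 of all 14114 genes fell in these 2 lines. Over clustered genes with a control mean of at least 1 FPKM the median log2 change with BETd-246 was -0.14, -0.04 and -0.06, and relative to the median of all genes it was -0.11, 0.01 and -0.03; under median-of-ratios scaling the latter were -0.08, 0.08 and 0.02, so the direction turns in MDA-MB-468. Quantile normalization moved them further, to -0.31, -0.20 and -0.24, which turns the direction in MDA-MB-231. Under median-of-ratios scaling the clustered medians themselves turned to 0.01, 0.16 and 0.11. Variant genes with a control mean of at least 1 FPKM had medians of 0.11, 0.15 and 0.17 with BETd-246. With BETi-211 their medians were 0.22, 0.37 and 0.38. The medians of all genes, taken without that limit, were -0.03, -0.05 and -0.03 with BETd-246 and -0.03, -0.03 and -0.01 with BETi-211. Under quantile normalization the variant medians with BETd-246 lay close to those of all genes, at relative values of -0.03, 0.01 and -0.01. Clustered genes with a control mean of at least 1 FPKM had medians of 0.02, 0.33 and 0.20 with BETi-211. The first turned to -0.03 under column-total scaling and to -0.02 under quantile normalization.

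**Figure D3:**
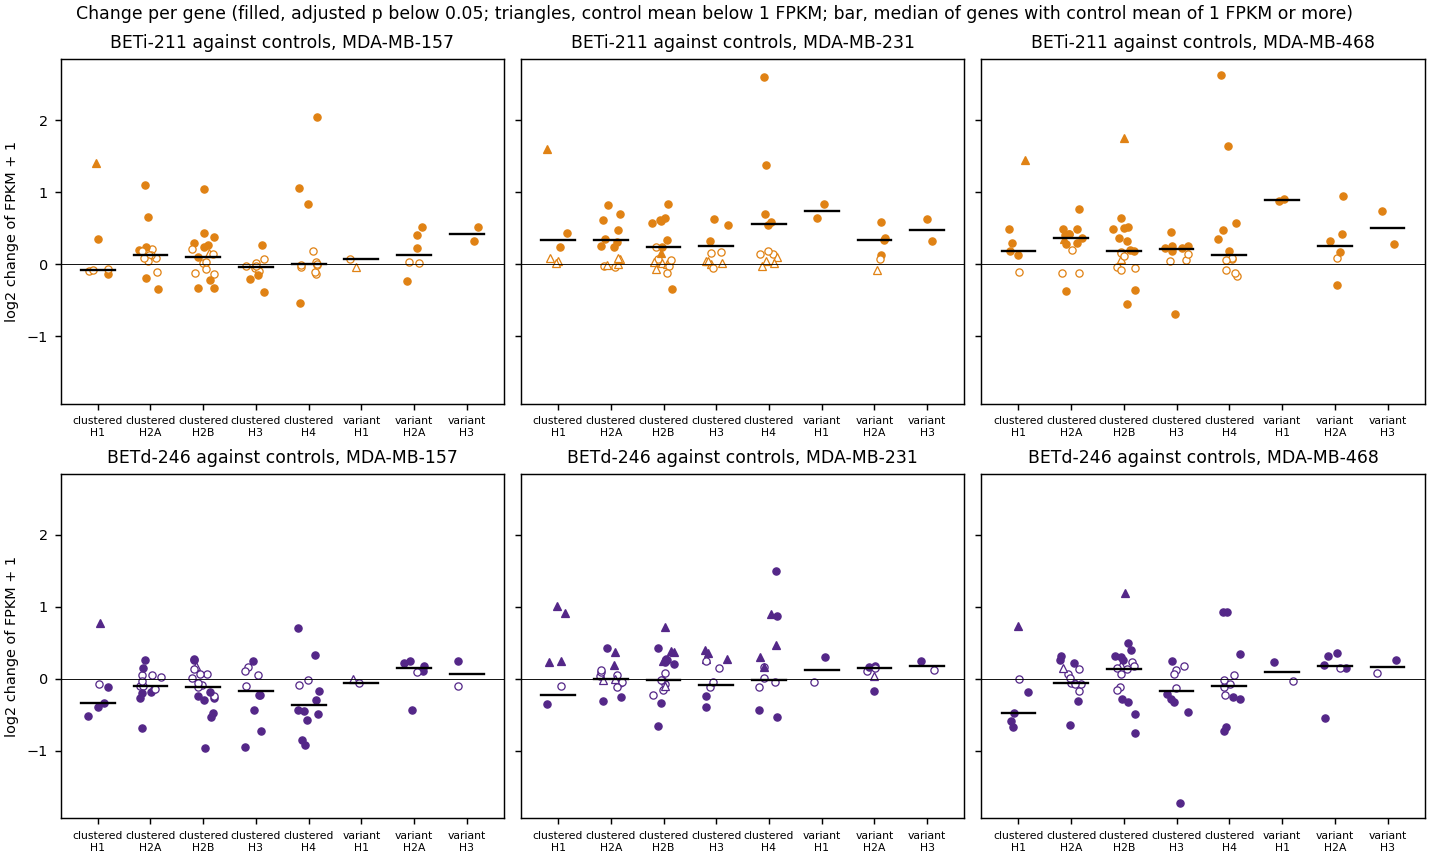
Log2 change of FPKM + 1 against the 4 controls of the same line for each histone gene, by histone type and family, for BETi-211 and BETd-246 in each line. Filled points passed the test (adjusted p below 0.05), triangles have a control mean below 1 FPKM and bars are medians of the genes at or above it; the variant genes lie mostly above 0 and the clustered genes spread to both sides with BETd-246.

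In summed FPKM the clustered genes held 1.82% of the total in the MDA-MB-157 controls, 1.77% with BETi-211 and 1.51% with BETd-246. In MDA-MB-231 the shares were 2.23%, 2.65% and 1.93%, and in MDA-MB-468 2.42%, 2.64% and 2.165%. The control libraries ran from 2.04% to 2.50% in MDA-MB-231 and from 2.24% to 2.55% in MDA-MB-468, so the shares with BETd-246 lay below all controls and those with BETi-211 above all of them in both lines. As plain sums of FPKM the BETd-246 libraries overlapped the controls, at 9416 to 10060 against 9253 to 11930 in MDA-MB-231 and at 11090 to 11800 against 10870 to 12710 in MDA-MB-468. In MDA-MB-157 the controls ran from 1.78% to 1.84%; both BETd-246 libraries were below them, at 1.48% and 1.54%, and the BETi-211 libraries, at 1.73% and 1.81%, overlapped them. The variant genes held 0.336%, 0.329% and 0.396% in the controls of the 3 lines, 0.404%, 0.410% and 0.511% with BETi-211, and 0.324%, 0.337% and 0.410% with BETd-246. In bulk RNA, fewer cells replicating DNA and less histone mRNA per cell cannot be told apart.

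Across lines, 15 of the 75 histone genes rose with BETi-211 in all 3 lines, where 8.26% of all genes did, and 0 fell in all 3 (19.9% of all genes; limma, also 0 at an unadjusted p below 0.05). With BETd-246, 8 rose in all 3 lines (8.59% of all genes) and 7 fell in all 3 (23.6%). HIST1H1T, HIST1H4I, HIST2H4B and H3F3A rose with both compounds in each line. HIST4H4 and H2AFX rose with BETi-211 and fell with BETd-246 in each line. The others that fell with BETd-246 in all lines were HIST1H1E, HIST1H2BN, HIST1H3A, HIST1H3B and HIST1H4A, and the others that rose were HIST1H2BM, HIST1H3I, H2AFV and H2AFY. Histone genes called higher with BETi-211 and lower with BETd-246 numbered 6 in MDA-MB-157 cells, 7 in MDA-MB-231 cells and 10 in MDA-MB-468. The reverse pair numbered 1, 1 and 3. How many of all genes had such pairs was not counted, so these numbers are not read as a trait of histone genes.

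Of the linker histones, the clustered H1 genes rose with BETi-211 in 2, 3 and 5 of 6 cases and fell in 1, 0 and 0. With BETd-246 they rose in 1, 4 and 1 and fell in 4, 1 and 4. The 4 rises in MDA-MB-231 were of genes below 1 FPKM in its controls; of the 2 expressed there 0 rose and 1 fell. For these counts and those of the other histone types below, 14.9%, 18.7% and 21.3% of all genes rose and 30.9%, 31.4% and 32.5% fell with BETi-211, and 19%, 14.8% and 20.1% rose and 32.4%, 33.3% and 33.7% fell with BETd-246. HIST1H1E had 207 and 214 FPKM with DMSO, 253 and 243 with thalidomide, 213 and 219 with BETi-211 and 175 and 174 with BETd-246 in MDA-MB-157. Values in MDA-MB-231 were 878 and 929 FPKM with DMSO, 856 and 1066 with thalidomide, 1054 and 1138 with BETi-211 and 750.2 and 708 with BETd-246, and in MDA-MB-468 371 and 358 FPKM with DMSO, 414 and 399.9 with thalidomide, 361 and 355 with BETi-211 and 267 and 246.03 with BETd-246. In each line both degrader libraries lay below the other 6. The log2 change with BETd-246 was -0.39 ± 0.07 (SE; adjusted p = 0.000136) in MDA-MB-157, -0.35 ± 0.07 (SE; adjusted p = 0.000383) in MDA-MB-231 and -0.59 ± 0.07 (SE; adjusted p = 1.3e-06) in MDA-MB-468, with 4 control and 2 treated libraries each. In MDA-MB-231 the call was lost under median-of-ratios scaling or when that line alone was fitted. HIST1H1A in MDA-MB-468 had 132 and 125 FPKM with DMSO, 135 and 127 with thalidomide, 181 and 183 with BETi-211 and 83.8 and 77.7 with BETd-246. Its inhibitor libraries lay above and its degrader libraries below the controls, with log2 changes of 0.49 ± 0.05 (SE; adjusted p = 5.14e-07) and -0.68 ± 0.05 (SE; adjusted p = 8.85e-09).

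HIST1H1C, the H1 gene whose mRNA can also be polyadenylated, rose with BETi-211 in MDA-MB-231, by 0.43 ± 0.06 (SE; adjusted p = 3.55e-05), and in MDA-MB-468, by 0.30 ± 0.06 (SE; adjusted p = 0.00103). Its changes with BETd-246 did not pass in any line and ran from -0.10 to 0.00. HIST1H1B fell slightly with BETd-246 in MDA-MB-157, to 395 and 405 FPKM from 421 to 455 in controls, a log2 change of -0.11 ± 0.03 that turned to 0.05 under median-of-ratios scaling. HIST1H1T was low but moved the same way everywhere. It had 0.378 and 0.550 FPKM with DMSO, 0.390 and 0.356 with thalidomide, 2.56 and 2.94 with BETi-211 and 1.37 and 1.47 with BETd-246 in MDA-MB-157. MDA-MB-231 gave 0.659 and 0.417 FPKM with DMSO, 0.462 and 0.438 with thalidomide, 4.62 and 2.60 with BETi-211 and 1.86 and 1.77 with BETd-246. The MDA-MB-468 libraries held 0.620 and 0.637 FPKM with DMSO, 0.449 and 0.419 with thalidomide, 3.07 and 3.24 with BETi-211 and 1.53 and 1.56 with BETd-246. All treated libraries of the 3 lines lay above their controls, and the inhibitor libraries above the degrader libraries. The log2 changes were 1.40 ± 0.12, 1.59 ± 0.12 and 1.44 ± 0.12 with BETi-211 and 0.77 ± 0.12, 0.92 ± 0.12 and 0.74 ± 0.12 with BETd-246, on a scale that understates changes of low genes.

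The variant H1 genes rose with BETi-211 in the 2 lines that expressed both. H1F0 in MDA-MB-231 had 25.4 and 27.0 FPKM with DMSO, 29.05 and 26.5 with thalidomide, 41.8 and 43.4 with BETi-211 and 24.9 and 27.5 with BETd-246. Values in MDA-MB-468 were 45.9 and 45.9 FPKM with DMSO, 48.6 and 50.8 with thalidomide, 91.3 and 88.4 with BETi-211 and 47.6 and 45.8 with BETd-246. The inhibitor libraries stood above all others, and the degrader libraries overlapped or lay close to the controls. The log2 changes with BETi-211 were 0.64 ± 0.05 (SE; adjusted p = 5.17e-08) and 0.90 ± 0.05 (SE; adjusted p = 6.55e-10), and with BETd-246 -0.04 and -0.03, which did not pass. H1FX, a ubiquitous H1 variant, had 27.8 and 30.1 FPKM with DMSO, 31.0 and 31.1 with thalidomide, 54.4 and 54.2 with BETi-211 and 37.9 and 36.2 with BETd-246 in MDA-MB-231. MDA-MB-468 gave 43.0 and 40.0 FPKM with DMSO, 49.0 and 48.5 with thalidomide, 82.0 and 84.5 with BETi-211 and 53.9 and 51.9 with BETd-246. In both lines the inhibitor libraries were highest and the degrader libraries stood between them and the controls. H1FX rose with BETi-211 by 0.84 ± 0.06 and 0.87 ± 0.06 and with BETd-246 by 0.30 ± 0.06 and 0.23 ± 0.06. In MDA-MB-157 its changes of 0.07 and -0.05 did not pass; its exon overlaps an antisense gene by 345 bases.

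Clustered H2A genes rose with BETi-211 in 4, 8 and 10 of 14 cases and fell in 2, 0 and 1; with BETd-246 they rose in 2, 3 and 3 and fell in 4, 2 and 2. Of the 10 expressed in MDA-MB-231, 1 rose and 2 fell with BETd-246. HIST1H2AE, among the 3 highest H2A genes, rose with BETi-211 by 0.20 ± 0.05 in MDA-MB-157 and 0.49 ± 0.05 in MDA-MB-468 and was in the silent stretch of MDA-MB-231. HIST1H2AH rose with BETi-211 by 0.35 ± 0.09 in MDA-MB-231 cells and 0.42 ± 0.09 in MDA-MB-468, and with BETd-246 by 0.32 ± 0.09 in MDA-MB-468, a call lost under quantile normalization. HIST1H2AM, which shares 346 exonic bases with HIST1H3J, rose with BETi-211 and fell with BETd-246 in MDA-MB-231, at log2 changes of 0.25 ± 0.08 and -0.25 ± 0.08; the second call was lost under upper-quartile and median-of-ratios scaling. HIST1H2AC, HIST3H2A and HIST2H2AB were singled out after their values were seen. HIST1H2AC rose with BETi-211 in each line, by 0.65 ± 0.07, 0.70 ± 0.07 and 0.49 ± 0.07, and did not pass with BETd-246. HIST3H2A stood at 24.4 to 26.7 FPKM in MDA-MB-157 controls and 53.3 and 57.1 with BETi-211, a log2 change of 1.10 ± 0.04. HIST2H2AB fell with BETd-246, at log2 changes of -0.68 ± 0.09 in MDA-MB-157 and -0.64 ± 0.09 in MDA-MB-468.

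H2AFX, which encodes the H2A form that is phosphorylated at DNA breaks and lies at chr11:119093854-119095467 (GRCh38, 1 exon), took opposite directions under the compounds. It had 33.8 and 30.2 FPKM with DMSO, 36.1 and 36.9 with thalidomide, 47.8 and 50.6 with BETi-211 and 25.9 and 24.4 with BETd-246 in MDA-MB-157. For MDA-MB-231 the values were 99.0 and 104 FPKM with DMSO, 96.1 and 103 with thalidomide, 149 and 153 with BETi-211 and 88.7 and 90.4 with BETd-246. For MDA-MB-468 the values were 51.4 and 48.7 FPKM with DMSO, 61.3 and 61.6 with thalidomide, 107 and 109 with BETi-211 and 37.0 and 38.5 with BETd-246. The inhibitor libraries were the highest in each line, and the degrader libraries the lowest. The log2 change was 0.51 ± 0.05 (SE; adjusted p = 1.09e-07) with BETi-211 and -0.43 ± 0.05 (SE; adjusted p = 8.26e-07) with BETd-246 in MDA-MB-157, and 0.95 ± 0.05 (SE; adjusted p = 4.29e-11) and -0.54 ± 0.05 (SE; adjusted p = 3.22e-08) in MDA-MB-468. In MDA-MB-231 it was 0.58 ± 0.05 (SE; adjusted p = 1.99e-08) and -0.17 ± 0.05 (SE; adjusted p = 0.00671); the second lost its call under upper-quartile scaling, at -0.09, and turned to 0.03 under median-of-ratios scaling. The printed window of the H2AFX promoter holds TATAAA, as do 34 of 52 clustered and 4 of 9 variant promoters.

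The other H2A variants moved less. H2AFZ, the gene of H2A.Z at promoters, rose with BETi-211 by 0.22 ± 0.07, 0.33 ± 0.07 and 0.33 ± 0.07 from control means of 408, 569 and 592 FPKM, and did not pass with BETd-246; the MDA-MB-157 call was lost with DMSO alone as control and the MDA-MB-231 call under quantile normalization. H2AFV, the gene of a close relative of H2A.Z, rose with BETd-246 by 0.11 ± 0.04, 0.17 ± 0.04 and 0.19 ± 0.04; these calls were lost under column-total scaling, and in MDA-MB-157 quantile normalization gave -0.01. H2AFY, a macroH2A gene whose exons overlap antisense genes, rose with BETd-246 by 0.21 ± 0.03, 0.18 ± 0.03 and 0.31 ± 0.03. H2AFY2 fell with BETi-211, at log2 changes of -0.23 ± 0.04 in MDA-MB-157 and -0.29 ± 0.04 in MDA-MB-468, and rose with BETd-246 by 0.18 ± 0.04 and 0.15 ± 0.04; both rises were lost with a pseudocount of 0.1. H2AFJ rose with BETi-211 by 0.40 ± 0.09, 0.37 ± 0.09 and 0.42 ± 0.09, and with BETd-246 by 0.24 ± 0.09 in MDA-MB-157 and 0.35 ± 0.09 in MDA-MB-468; the MDA-MB-157 call was lost with DMSO or thalidomide alone as control.

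Clustered H2B genes rose with BETi-211 in 7, 8 and 9 of 18 cases and fell in 3, 1 and 2; with BETd-246 they rose in 2, 9 and 6 and fell in 7, 2 and 4. Of the 13 expressed in MDA-MB-231, 5 rose and 2 fell with BETd-246. HIST1H2BN, whose gene model at chr6:27837760-27865798 runs to HIST1H2AL and past it, fell with BETd-246 in every line. It had 48.6 and 41.4 FPKM with DMSO, 50.0 and 49.6 with thalidomide, 40.1 and 40.8 with BETi-211 and 23.8 and 23.7 with BETd-246 in MDA-MB-157. The MDA-MB-231 libraries held 85.3 and 89.8 FPKM with DMSO, 79.3 and 93.2 with thalidomide, 74.3 and 85.0 with BETi-211 and 56.7 and 53.3 with BETd-246, and in MDA-MB-468 82.6 and 71.9 FPKM with DMSO, 83.8 and 82.0 with thalidomide, 76.2 and 74.5 with BETi-211 and 49.2 and 45.3 with BETd-246. The degrader libraries were the lowest of each line and did not overlap the rest. The log2 changes were -0.97 ± 0.07 (SE; adjusted p = 1.5e-08), -0.65 ± 0.07 (SE; adjusted p = 1.95e-06) and -0.75 ± 0.07 (SE; adjusted p = 2.92e-07). Its exons overlap those of HIST1H2AK on the opposite strand by 393 bases, and those of HIST1H2AL on its own strand by 4 bases, so part of its reads may belong to a neighbour. HIST1H2BD, an H2B gene whose mRNA can also be spliced and polyadenylated, rose with BETi-211 by 0.37 ± 0.08, 0.57 ± 0.08 and 0.52 ± 0.08 from 354, 574 and 501 FPKM.

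HIST1H2BE in MDA-MB-468 had 0.337 and 0.322 FPKM with DMSO, 0.396 and 0.341 with thalidomide, 3.41 and 3.70 with BETi-211 and 1.54 and 2.72 with BETd-246. The 4 treated libraries stood above the controls, all of them at low levels; its log2 changes were 1.75 ± 0.13 and 1.19 ± 0.13. In MDA-MB-157, where its control mean was 106 FPKM, its changes of -0.14 and -0.24 did not pass. HIST1H2BJ fell with BETi-211 in MDA-MB-157, at a log2 change of -0.33 ± 0.10, and HIST1H2BC rose with it in MDA-MB-231 by 0.60 ± 0.08, and in MDA-MB-468 by 0.33 ± 0.08. HIST1H2BM, named after its values were seen, rose with BETd-246 by 0.26 ± 0.06, 0.28 ± 0.06 and 0.40 ± 0.06. It fell with BETi-211, at log2 changes of -0.34 ± 0.06 in MDA-MB-231 cells and -0.55 ± 0.06 in MDA-MB-468. No other histone gene was called higher with BETd-246 and lower with BETi-211 in MDA-MB-231.

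Clustered H3 genes rose with BETi-211 in 1, 3 and 6 of 10 cases and fell in 3, 0 and 1; with BETd-246 they rose in 1, 4 and 1 and fell in 5, 2 and 5. The 4 rises in MDA-MB-231 were of genes below 1 FPKM there, and of the 6 expressed 0 rose and 2 fell. HIST1H3E, which has 2 exon blocks at chr6:26224199-26227473, fell with both compounds where it was expressed. It had 32.3 and 30.3 FPKM with DMSO, 30.6 and 29.8 with thalidomide, 22.3 and 24.5 with BETi-211 and 15.3 and 15.7 with BETd-246 in MDA-MB-157. The MDA-MB-468 libraries held 30.4 and 28.3 FPKM with DMSO, 30.6 and 29.2 with thalidomide, 18.6 and 17.3 with BETi-211 and 8.17 and 8.44 with BETd-246. The degrader libraries lay below the inhibitor libraries and these below the controls in both lines. The log2 changes were -0.38 ± 0.05 (SE; adjusted p = 4.21e-06) and -0.94 ± 0.05 (SE; adjusted p = 5.24e-11) in MDA-MB-157 and -0.69 ± 0.05 (SE; adjusted p = 2.42e-09) and -1.72 ± 0.05 (SE; adjusted p = 2.69e-14) in MDA-MB-468. The change in MDA-MB-468 was the largest fall of any histone gene with BETd-246. In MDA-MB-231 HIST1H3E lay in the silent stretch, at 0.373 and 0.357 FPKM with BETd-246.

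The clustered H3 genes with the highest FPKM had smaller changes. HIST1H3B in MDA-MB-231 had 1101 and 1179.7 FPKM with DMSO, 1049 and 1347 with thalidomide, 1409.9 and 1516 with BETi-211 and 1013 and 966 with BETd-246. The inhibitor libraries lay above the controls and the degrader libraries below them, without overlap. With BETd-246 HIST1H3B changed by -0.23 ± 0.07, -0.23 ± 0.07 and -0.21 ± 0.07, calls that were lost in every line under median-of-ratios scaling and with DMSO alone as control. HIST1H3F fell with BETd-246, at log2 changes of -0.44 ± 0.04 in MDA-MB-157 and -0.32 ± 0.04 in MDA-MB-468. HIST1H3C passed once, with a rise of 0.23 ± 0.08 with BETi-211 in MDA-MB-468. Its other changes ran from -0.11 to 0.15 and did not pass.

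H3F3A and H3F3B encode the same variant protein, which is placed in chromatin outside replication. H3F3B, at chr17:75776434-75785893, had 621 and 568 FPKM with DMSO, 619 and 616 with thalidomide, 854 and 872 with BETi-211 and 549 and 579 with BETd-246 in MDA-MB-157. Values in MDA-MB-231 were 373 and 365 FPKM with DMSO, 323 and 415 with thalidomide, 564 and 571 with BETi-211 and 406 and 393 with BETd-246, and in MDA-MB-468 525 and 485 FPKM with DMSO, 543 and 517 with thalidomide, 854 and 867 with BETi-211 and 549 and 546 with BETd-246. The inhibitor libraries stood above the other 6 in each line while the degrader libraries overlapped the controls in MDA-MB-157 and MDA-MB-231 and lay just above them in MDA-MB-468. With BETi-211 H3F3B rose by 0.51 ± 0.07 (SE; adjusted p = 1.75e-05), 0.62 ± 0.07 (SE; adjusted p = 1.69e-06) and 0.73 ± 0.07 (SE; adjusted p = 2.16e-07), whereas its changes with BETd-246, -0.10, 0.12 and 0.08, did not pass. H3F3A rose with BETi-211 by 0.33 ± 0.06, 0.32 ± 0.06 and 0.28 ± 0.06 and with BETd-246 by 0.24 ± 0.06, 0.25 ± 0.06 and 0.26 ± 0.06. Under column-total scaling the BETd-246 calls of H3F3A in MDA-MB-157 and MDA-MB-231 were lost, and under quantile normalization those in MDA-MB-157 cells and MDA-MB-468. H3F3B was the 1 variant gene with the octamer in its promoter.

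Clustered H4 genes rose with BETi-211 in 3, 5 and 6 of 12 cases and fell in 1, 0 and 0; with BETd-246 they rose in 2, 6 and 3 and fell in 8, 2 and 4. Of the 6 rises in MDA-MB-231, 4 were of genes below 1 FPKM, and of the 8 expressed 2 rose and 2 fell. HIST4H4, which lies at chr12:14767999-14771131 with 3 exon blocks, near the variant gene H2AFJ at chr12:14774383-14778002, took opposite directions. It had 23.04 and 22.5 FPKM with DMSO, 23.9 and 25.4 with thalidomide, 44.0 and 42.1 with BETi-211 and 12.4 and 11.8 with BETd-246 in MDA-MB-157. MDA-MB-231 gave 51.5 and 63.1 FPKM with DMSO, 51.2 and 65.7 with thalidomide, 92.0 and 96.3 with BETi-211 and 41.9 and 37.5 with BETd-246, and in MDA-MB-468 67.0 and 57.3 FPKM with DMSO, 68.7 and 66.3 with thalidomide, 89.0 and 92.4 with BETi-211 and 41.5 and 39.0 with BETd-246. The inhibitor libraries were the highest and the degrader libraries the lowest in each line. The log2 changes with BETi-211 were 0.83 ± 0.09 (SE; adjusted p = 1.08e-06), 0.70 ± 0.09 (SE; adjusted p = 6.7e-06) and 0.48 ± 0.09 (SE; adjusted p = 0.00027), and with BETd-246 -0.92 ± 0.09 (SE; adjusted p = 3.06e-07), -0.53 ± 0.09 (SE; adjusted p = 0.000154) and -0.67 ± 0.09 (SE; adjusted p = 9.7e-06).

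**Figure D4:**
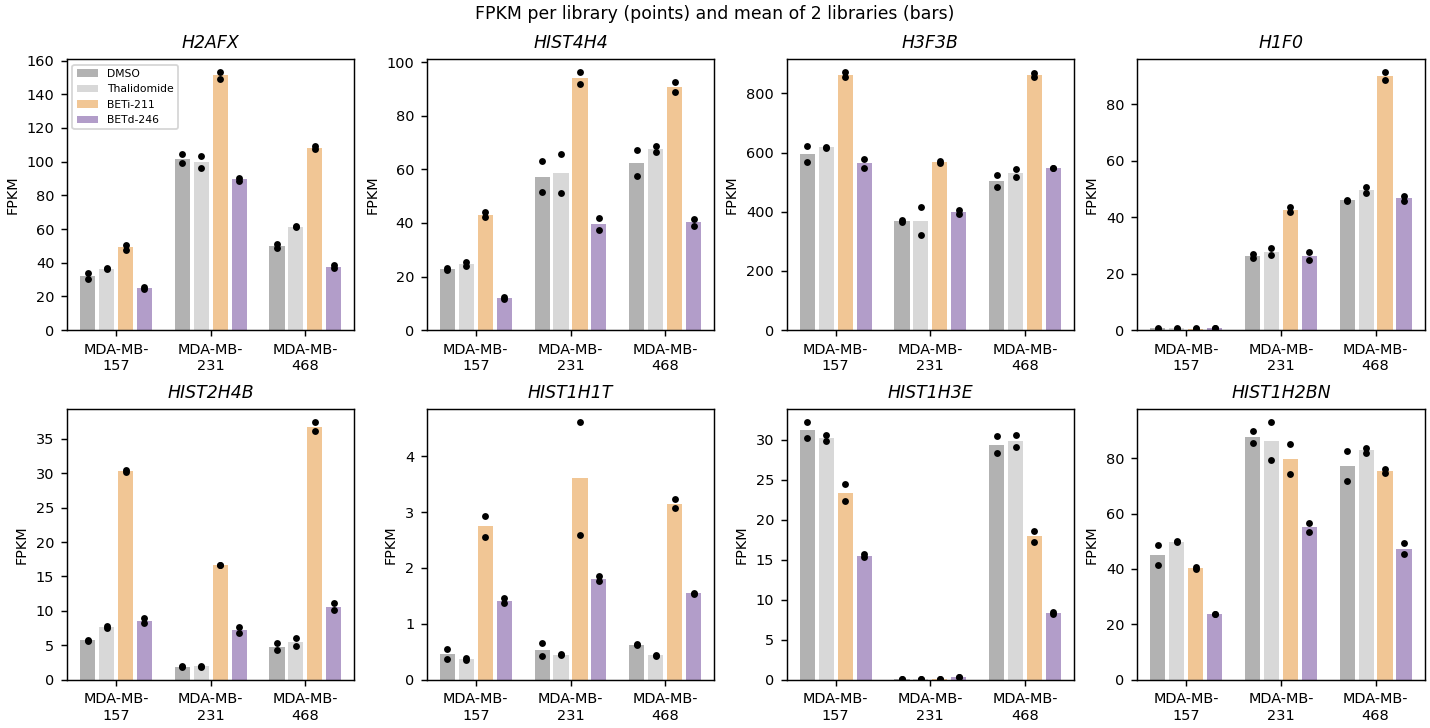
FPKM of 8 histone genes in each library of the 3 lines; points are libraries and bars the mean of the 2 libraries of a treatment. H2AFX and HIST4H4 are highest with BETi-211 and lowest with BETd-246, H3F3B is highest with BETi-211, as is H1F0 in MDA-MB-231 cells and MDA-MB-468, HIST2H4B and HIST1H1T are above controls with both, and HIST1H3E and HIST1H2BN are lowest with BETd-246 where expressed.

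HIST2H4B, on chromosome 1 at chr1:149854045-149861210, had the largest rises of the coding genes with BETi-211. It had 5.77 and 5.68 FPKM with DMSO, 7.49 and 7.78 with thalidomide, 30.5 and 30.1 with BETi-211 and 8.96 and 8.20 with BETd-246 in MDA-MB-157. For MDA-MB-231 the values were 1.96 and 1.83 FPKM with DMSO, 1.84 and 2.02 with thalidomide, 16.6 and 16.7 with BETi-211 and 6.76 and 7.72 with BETd-246, and in MDA-MB-468 4.31 and 5.31 FPKM with DMSO, 4.91 and 6.04 with thalidomide, 37.5 and 36.1 with BETi-211 and 10.1 and 11.1 with BETd-246. The inhibitor libraries were far above the controls, and the degrader libraries lay between them. The log2 changes were 2.04 ± 0.07 (SE; adjusted p = 4.49e-12), 2.60 ± 0.07 (SE; adjusted p = 2e-13) and 2.63 ± 0.07 (SE; adjusted p = 1.44e-13) with BETi-211 and 0.33 ± 0.07 (SE; adjusted p = 0.00165), 1.4999 ± 0.07 (SE; adjusted p = 5.4e-11) and 0.92 ± 0.07 (SE; adjusted p = 2.17e-08) with BETd-246. HIST2H4B shares 173 exonic bases with HIST2H3A on the opposite strand and has a near-identical copy, so its reads could belong to either. HIST1H4I had a like order at low levels, 3.61, 4.33 and 3.21 FPKM in controls. It rose by 1.06 ± 0.06, 1.37 ± 0.06 and 1.64 ± 0.06 with BETi-211 and by 0.70 ± 0.06, 0.87 ± 0.06 and 0.93 ± 0.06 with BETd-246.

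HIST1H4A fell with BETd-246 in each line. It had 89.6 and 70.8 FPKM with DMSO, 72.3 and 75.2 with thalidomide, 50.2 and 54.7 with BETi-211 and 41.0 and 43.5 with BETd-246 in MDA-MB-157, and 184 and 170.2 FPKM with DMSO, 213 and 207 with thalidomide, 169.5 and 174 with BETi-211 and 117 and 114 with BETd-246 in MDA-MB-468. The degrader libraries were the lowest in both lines. Its log2 changes with BETd-246 were -0.85 ± 0.08 (SE; adjusted p = 1.42e-07), -0.44 ± 0.08 (SE; adjusted p = 0.000218) and -0.73 ± 0.08 (SE; adjusted p = 7.05e-07), and with BETi-211 it fell in MDA-MB-157, at a log2 change of -0.54 ± 0.08. HIST1H4B fell with BETd-246 in MDA-MB-157, at a log2 change of -0.57 ± 0.09, and did not pass in the other lines. HIST1H4C and HIST1H4H, both at over 100 FPKM in each line, rose with BETi-211 in MDA-MB-231, by 0.58 ± 0.10 and 0.54 ± 0.08, and in MDA-MB-468, by 0.57 ± 0.10 and 0.34 ± 0.08. With BETd-246 HIST1H4C rose in MDA-MB-468, by 0.35 ± 0.10, and HIST1H4H fell in MDA-MB-157, at a log2 change of -0.30 ± 0.08.

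The 5 pseudogenes were low in control cells. With BETi-211, 3, 3 and 2 of them rose and 0 fell, and with BETd-246, 0, 5 and 2 rose and 1, 0 and 1 fell. The shares of all genes are those given with the H1 genes. Of the 5 rises in MDA-MB-231, 2 were of genes below 1 FPKM in its controls. HIST2H2BA, named after its values were seen, had 4.16 and 3.95 FPKM with DMSO, 4.59 and 5.40 with thalidomide, 10.5 and 10.9 with BETi-211 and 8.77 and 6.23 with BETd-246 in MDA-MB-231. Its treated libraries lay above the controls. It rose by 1.09 ± 0.10 and 0.61 ± 0.10 with BETi-211 and BETd-246. HIST1H1PS1, also named after its values were seen, had 2.04 and 0.599 FPKM with DMSO, 2.01 and 1.65 with thalidomide, 15.6 and 13.05 with BETi-211 and 2.60 and 2.58 with BETd-246 in MDA-MB-157. Its inhibitor libraries stood far above the rest, with a log2 change of 2.62 ± 0.22 (SE; adjusted p = 6.05e-08), the largest of the 75 genes in that line. In MDA-MB-468 it rose with BETi-211 by 1.999 ± 0.22. The exon of HIST1H1PS1 overlaps AL031777.3 on the opposite strand by 533 bases, and the 2 cannot be told apart.

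Counts were also read by position, beside the shares of all genes given with the H1 genes. The 10 genes of the HIST2 group on chromosome 1, pseudogenes included, rose with BETi-211 in 4, 10 and 8 cases and fell in 0, with medians of 0.20, 0.74 and 0.43. The 33 genes of the first HIST1 region at chr6:25726777-26285638 rose with BETi-211 in 9, 12 and 18 cases and fell in 6, 0 and 3, with medians of -0.04, 0.10 and 0.18. In MDA-MB-231, 17 of these 33 genes were below 1 FPKM; of the 16 expressed 10 rose with BETi-211, with a median of 0.38, and all 10 genes of the HIST2 group were expressed. With BETd-246 the first HIST1 region rose in 1, 17 and 7 cases and fell in 20, 4 and 15; of the 16 genes expressed in MDA-MB-231, 1 rose and 4 fell. By structure, 12 clustered genes had 2 or more exon blocks in GENCODE 29. Over those of at least 1 FPKM in the controls (12, 11 and 11 genes), medians with BETi-211 were -0.0013, 0.57 and 0.34, and over those with 1 block (46, 28 and 45 genes) 0.03, 0.28 and 0.18. With BETd-246 the medians were -0.17, -0.02 and 0.05 for 2 or more blocks and -0.14, -0.05 and -0.08 for 1 block. Expressed clustered genes with the octamer (23, 17 and 22) had medians of -0.14, -0.02 and -0.02 with BETd-246, and those whose promoter lacked it (27, 15 and 27) -0.26, -0.05 and -0.13. With BETi-211 the medians were 0.09, 0.25 and 0.24 with the octamer and -0.01, 0.43 and 0.18 without it, so the order turned in MDA-MB-231. These are descriptions with no test.

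Thalidomide, the cereblon ligand alone, gave no called change in histone genes. Against DMSO, 0 of the 75 genes passed in each line (limma; 0.184%, 0% and 0% of all genes), and 10, 0 and 11 had an unadjusted p below 0.05. The lowest adjusted p was 0.0958 in MDA-MB-157 cells, 0.804 in MDA-MB-231 cells and 0.121 in MDA-MB-468. Under quantile normalization 4 genes passed in MDA-MB-157. Without DMSO replicate 1 of MDA-MB-157, 2 passed there, and without thalidomide replicate 2 of MDA-MB-231, 11 did.

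The change with BETd-246 itself differed between lines for some genes. Between MDA-MB-157 and MDA-MB-231 it differed for 26 of the 75 genes (11.2% of all genes), 25 of them with the lower change in MDA-MB-157 (5.01% of all genes) and 1 with the higher (6.23%). Between MDA-MB-468 and MDA-MB-231 it differed for 21 (13.3%), 17 of them lower (8.45%) and 4 higher (4.82%) in MDA-MB-468, and between MDA-MB-157 and MDA-MB-468 for 10 (13.1%), 8 of them lower (4.02%) and 2 higher (9.06%) in MDA-MB-157. Without thalidomide replicate 2 of MDA-MB-231 the first count was 41, and without BETd-246 replicate 1 of MDA-MB-157 the third was 6. Many of the differences with MDA-MB-231 were of genes near 0 there. Among expressed genes, the BETd-246 change of H2AFX was lower than in MDA-MB-231 both in MDA-MB-157, with a difference of log2 changes of -0.26 ± 0.06, and in MDA-MB-468, with -0.38 ± 0.06; both calls were lost with DMSO alone as control. That of HIST1H4B was lower in MDA-MB-157 than in MDA-MB-231, with a difference of -0.46 ± 0.13. HIST1H3E fell further in MDA-MB-468 than in MDA-MB-157, and the difference of MDA-MB-157 from MDA-MB-468 was 0.78 ± 0.07.

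Genes that act on histone mRNA and protein were read from 3 lists. Of 22 measured genes for histone mRNA transcription and 3′ processing, 12, 11 and 11 fell with BETd-246 and 0, 0 and 1 rose, at medians of -0.20, -0.09 and -0.17, and 11 fell and 1 rose with BETi-211 in each line. NPAT, the coactivator at histone loci, fell with BETd-246, at log2 changes of -0.81, -0.81 and -1.18, and LSM11, a part of the U7 particle that cleaves histone pre-mRNA, did so at -1.14, -1.29 and -1.07. ZNF473, another 3′ processing factor, changed by -1.41, -1.72 and -1.10. SLBP was the 1 gene of the list that rose with BETi-211, by 0.23, 0.58 and 0.54. Of 30 measured chaperone and deposition genes, 4, 5 and 5 rose and 11, 11 and 10 fell with BETd-246, and 4, 4 and 6 rose and 13, 17 and 15 fell with BETi-211, at medians of -0.14, -0.15 and -0.14. Of all genes 30.9%, 31.4% and 32.5% fell with BETi-211 and 32.4%, 33.3% and 33.7% with BETd-246. Rises were called for 14.9%, 18.7% and 21.3% of all genes with BETi-211 and for 19%, 14.8% and 20.1% with BETd-246. ASF1B, a chaperone of newly made H3 and H4, rose with BETi-211 by 0.46, 0.86 and 0.68, and NASP, another, by 0.21, 0.40 and 0.32. DAXX, a chaperone of the replication-independent H3, fell with it, at log2 changes of -1.0005, -1.05 and -0.81. HJURP, which deposits the centromeric H3, fell with BETd-246, at log2 changes of -1.04, -0.86 and -1.58.

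Of 32 measured S phase genes, 6, 5 and 7 rose and 9, 10 and 12 fell with BETd-246, with medians of 0.00, -0.02 and -0.05, and 6, 10 and 9 rose and 14, 13 and 13 fell with BETi-211, with medians of -0.08, -0.06 and -0.08. Shares of all genes are those given with the chaperones. CCNE2, a cyclin that starts DNA replication, changed by 0.51, 0.75 and 0.77 with BETi-211 and by -0.64, -0.64 and -1.001 with BETd-246. CCNE1, its relative, changed by 0.22, 0.54 and 0.34 and by -0.54, -0.89 and -0.96. PCNA, the replication clamp, rose with BETi-211 by 0.30, 0.41 and 0.36, and CDT1, a licensing factor of replication origins, fell with it, at log2 changes of -0.52, -0.40 and -0.70. No rule fixed beforehand which genes of the lists were named, and DAXX and CDT1 were named after their values were seen. All of these cyclin values passed the test. These genes moved beside the histone genes, and their part in the histone values was not tested.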

How the data were processed

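The deposited table holds 1 value per gene and library for 14114 genes in 24 libraries. The values were taken as FPKM, since the authors' table names no unit: low values are whole multiples of a step that shrinks with transcript length, from transcripts of at least 300 bases, and the step gives the estimated fragments per library. Per the labels' protocols, ribosomal RNA was removed and the libraries carry no strand mark. Reads were made with bcl2fastq 2.17.1.14 and aligned with Bowtie 0.12.8 to GRCh38.p5, per the submitters' processing notes; what computed the FPKM values, on which annotation and with which filter, is not given in the sources used here.

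Values were tested as log2(FPKM + 1) with limma 3.58.1 (R 4.3.3; 1 coefficient for each of 12 groups, intensity trend, two-sided, 12 residual and 3.324 prior degrees of freedom), adjusted after Benjamini and Hochberg over all 14114 genes and called at an adjusted p below 0.05. Fold changes on this scale understate changes of low genes. Both control groups of a line, DMSO and thalidomide, had equal weight in each comparison with a compound. The fit was tested on simulated data. Histone genes were named with values by a rule. It took all variants and the 3 highest genes of each clustered histone type. It also took the 3 largest called rises and falls of each line with BETd-246. The text says where other histone genes were named after their values were seen. No such rule covered the genes of the 3 lists. The rule for members reads symbols alone, but histone genes as the subject, and the gene lists, were chosen with earlier results of these data known. Libraries were fitted without pairing by replicate number. The correlation of deviations between treatments ran from -0.207 to 0.335. It was over 0.1 in 6 of 18 pairings and under -0.1 in 3, and was highest between DMSO and thalidomide of MDA-MB-468. A pairing in that line is therefore not excluded, and the replicate number was also tried as a block. Other scalings, pseudocounts, filters, controls and left-out libraries were tried as alternatives. No protein sequence was used here.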

Additional observations from a re-analysis of the deposited data

Results flagged for a closer look

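The change with BETd-246 differed between lines, by a test of the difference itself in limma, for 26 histone genes between MDA-MB-157 and MDA-MB-231, 21 between MDA-MB-468 and MDA-MB-231, and 10 between MDA-MB-157 and MDA-MB-468. Between MDA-MB-157 and MDA-MB-231 the difference of log2 changes was -0.35 for H1FX, -0.26 for H2AFX, -1.53 for HIST1H1A, -0.35 for HIST1H1B, -0.31 for HIST1H2AE, -1.30 for HIST1H3E, -0.71 for HIST1H3F, -0.41 for HIST1H4A, -0.46 for HIST1H4B and -1.17 for HIST2H4B. HIST1H1A, HIST1H1B, HIST1H2AE, HIST1H3E and HIST1H3F were near 0 in MDA-MB-231 controls, so for them the difference compares expressed genes with traces. Between MDA-MB-468 and MDA-MB-231 it was -0.38 for H2AFX, -1.69 for HIST1H1A, -0.42 for HIST1H1B, 1.21 for HIST1H2BE, 0.46 for HIST1H2BJ, -2.08 for HIST1H3E, -0.60 for HIST1H3F and -0.58 for HIST2H4B. Between MDA-MB-157 and MDA-MB-468 it was -1.43 for HIST1H2BE, 0.78 for HIST1H3E, -0.46 for HIST1H4B and -0.59 for HIST2H4B.

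A single control library stood apart from the other 3 of its line (a gap to the nearest library, over the range, above Dixon's critical value) in 6 of 100 sets tested, where chance gives about 1 in 20. In MDA-MB-157 these were the highest value of HIST1H2BJ, 269 FPKM, the lowest of H3F3B, 568 FPKM, and the lowest of HIST1H2BN, 41.5 FPKM. In MDA-MB-231 they were the highest value of H2AFJ, 10.5 FPKM, and the lowest of HIST1H2AE, 0 FPKM. In MDA-MB-468 it was the lowest of HIST1H2BN, 71.9 FPKM.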

How the results depend on the processing

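Under 24 settings that leave out a library, 11 others and the added filter, 714 of 789 counts stayed within 1.5 times their value, and of 9063 values of single genes 8590 kept direction and call, 221 lost and 238 gained the call and 14 reversed. The cause was not tested for any of the following. With BETd-246 the count higher in MDA-MB-157 (13) was 20 with upper-quartile, 7 with column-total and 24 with median-of-ratios scaling and 7 with thalidomide alone as control, and the count lower there (30) was 18 with median-of-ratios scaling. In MDA-MB-231 the count lower (10) was 21 with quantile normalization, 18 with column-total and 4 with median-of-ratios scaling and 5 with that line alone fitted; the count higher (35) was 15 among genes with a control mean of at least 1 FPKM, an alternative added after seeing the data. In MDA-MB-468 median-of-ratios scaling gave 39 higher (22) and 13 lower (21). With BETi-211 the count lower in MDA-MB-157 (11) was 17 with quantile normalization and with column-total, 6 with upper-quartile and 5 with median-of-ratios scaling; in MDA-MB-231 (1) it was 3 with a pseudocount of 0.1 and with quantile normalization and 2 with column-total scaling; in MDA-MB-468 (5) it was 11 with quantile normalization and with column-total scaling. Thalidomide against DMSO in MDA-MB-157 gave 4 with quantile normalization, and the difference of BETd-246 changes between MDA-MB-468 and MDA-MB-231 (21) gave 33.

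Leaving out each library in turn, the BETd-246 counts ran from 7 to 13 higher and 19 to 28 lower in MDA-MB-157, 26 to 42 and 6 to 19 in MDA-MB-231, and 16 to 25 and 18 to 22 in MDA-MB-468. The BETi-211 counts ran from 19 to 26 and 5 to 12, 30 to 45 and 1 to 3, and 38 to 47 and 4 to 6. Thalidomide counts ran from 0 to 2, 0 to 11 and 0 to 0, counts between controls of lines from 70 to 73 (MDA-MB-157 and MDA-MB-231), 67 to 70 (MDA-MB-468 and MDA-MB-231) and 61 to 63 (MDA-MB-157 cells and MDA-MB-468), and differences of the BETd-246 change from 18 to 41, 18 to 29 and 6 to 13. The libraries behind shifts of over 1.5 times were, in MDA-MB-157, BETd-246 replicate 2 (7 higher with BETd-246), BETd-246 replicate 1 (19 lower, and 6 differences from MDA-MB-468), BETi-211 replicate 1 (5 lower with BETi-211) and DMSO replicate 1 (2 with thalidomide). In MDA-MB-231 they were thalidomide replicate 1 (19 lower with BETd-246, 3 lower with BETi-211), BETd-246 replicate 2 (6 lower) and thalidomide replicate 2 (11 with thalidomide, 41 differences from MDA-MB-157). A group left with 1 library was assumed to vary like the others.

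Median-of-ratios scaling reversed BETd-246 changes of H1F0 in MDA-MB-468 (to 0.15) and in MDA-MB-231 (to 0.15), H2AFX in MDA-MB-231 (0.033) and HIST1H1B in MDA-MB-157 (0.0457). Quantile normalization reversed H2AFV with BETd-246 in MDA-MB-157 (-0.0062), HIST1H1C with BETd-246 in MDA-MB-468 (-0.19), HIST1H4H with BETd-246 (-0.15 in MDA-MB-231 cells, -0.13 in MDA-MB-468), HIST1H1B and HIST1H3F with BETi-211 in MDA-MB-468 (-0.12 and -0.20), and control differences of H3F3A (0.10) and HIST1H4I (-0.0048) between MDA-MB-468 and MDA-MB-157 and of HIST1H2BC (-0.0533) between MDA-MB-468 and MDA-MB-231. HIST1H2BD with thalidomide in MDA-MB-231 ran from -0.21 to 0.21 when a library was left out, the first without thalidomide replicate 2 and the second without thalidomide replicate 1.

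With the replicate number as a block the counts were 13 higher and 30 lower with BETd-246 in MDA-MB-157, 33 and 10 in MDA-MB-231 and 23 and 22 in MDA-MB-468, and 24 and 11, 39 and 1, and 47 and 5 with BETi-211. The block gave 0 with thalidomide in each line, 70, 66 and 64 between controls of lines and 28, 21 and 10 differences of the BETd-246 change. The samples share only a number. Depth limits what can be read of genes listed at 0 in controls, for which no fold is given.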
